A study of Homo sapiens with 4 samples.

Results

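Noncoding and unannotated transcripts made up 56 of the 2897 genes in an expression table of gastric cancer (GC) cells treated with isorhamnetin (ISO), a flavonol. They were the rows whose gene biotype was neither protein coding nor a pseudogene and which did not lie on the mitochondrial chromosome. The biotypes were 17 long noncoding RNAs (lncRNAs), 9 small nucleolar RNAs (snoRNAs), 8 microRNAs (miRNAs), 1 transcript awaiting experimental testing (TEC) and 21 assembled transcripts that the table gives a running number but no gene and no biotype, called unannotated transcripts below. The libraries were the human GC line AGS-1 (a line the labels also call AGS) and the human GC line HGC-27, both wild type by the labels, each as untreated control and after ISO, at 50 µM for 24 h by the labels. A lower dose is given for these cells in the text of the study, which also speaks of duplicates. The table used here holds 1 column for each of these 4 groups, treated as 1 library, so neither line has a spread between replicates, and a ratio of ISO to control compares 1 library with another. All values are FPKM (fragments normalized to transcript length and library depth). The libraries held between 15235004 and 20199425 fragments, of which the 56 rows took 0.383% to 0.544%. All genes of the table together took 78.45% and 64.37% of the fragments in control and ISO-treated AGS-1 cells. In HGC-27 cells they took 61.05% and 59.96%. Of 6 epithelial markers 5 were in the table, and EPCAM stood at 248 and 167 FPKM in control and ISO-treated AGS-1 cells but at 0.387 and 0.506 FPKM in HGC-27 cells, whereas the mesenchymal intermediate filament gene VIM stood at 0.697 and 0.860 FPKM in AGS-1 cells and at 306 and 249 FPKM in HGC-27 cells. The fibroblast collagen genes COL1A1 and COL3A1, 2 of 4 fibroblast markers present, stood at 289 to 427 FPKM in HGC-27 cells and at 9.71 FPKM or less in AGS-1 cells. Neither of the leukocyte markers PTPRC and CD74 was in the table.

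LncRNAs are long transcripts that are not translated into a known protein, and some of them build nuclear structures or are spliced to release other RNAs. SnoRNAs guide chemical modification of ribosomal RNA, the C/D box class (SNORD) guiding methylation and the H/ACA class (SNORA) pseudouridylation, and in human cells most are cut out of introns of ribosomal protein genes or of noncoding host genes of the SNHG and GAS5 type. A miRNA is cut as a hairpin from its host transcript and then trimmed to a short mature strand, whose seed pairs with target mRNAs. The libraries were made with an mRNA kit, so a snoRNA or miRNA row counts fragments that fall in its interval. Whether such a fragment came from the small RNA itself or from unspliced host RNA cannot be told apart.

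The mature strands of the 4 miRNA genes on which the results below turn are printed here because the table names only their hairpin rows, and the fragments counted cannot be assigned to either arm. They come from RefSeq (GRCh38.p14), 5′ to 3′, with the seed (bases 2 to 8) in capitals.
hsa-miR-3153: gGGGAAAGcgaguagggacauuu
hsa-miR-616-5p: aCUCAAAAcccuucagugacuu
hsa-miR-616-3p: aGUCAUUGgaggguuugagcag
hsa-miR-25-5p: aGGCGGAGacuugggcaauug
hsa-miR-25-3p: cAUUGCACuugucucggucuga
hsa-miR-3189-5p: uGCCCCAUcugugcccuggguagga
hsa-miR-3189-3p: cCCUUGGGucugaugggguag
RefSeq gave mature strands for 7 of the 8 miRNA rows, MIR1254-1 being unmatched. No seed was shared between these rows. The seed of hsa-miR-25-3p is also that of 5 other human miRNA names in that table, hsa-miR-32-5p, hsa-miR-363-3p, hsa-miR-367-3p, hsa-miR-92a-3p and hsa-miR-92b-3p. That of hsa-miR-3153 is also the seed of hsa-miR-6733-5p and hsa-miR-6739-5p, and that of hsa-miR-616-5p the seed of hsa-miR-371b-5p and hsa-miR-373-5p.

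The snoRNAs of the ribosomal protein genes RPS12 and RPS13 are printed because they lie within introns whose host gene could be read from the same libraries. Sequences are from GENCODE 29 on GRCh38, 5′ to 3′, with the C box (TGATGA) and the D box (CTGA) of the SNORD genes in capitals, and the ACA near the 3′ end of SNORA33.
SNORD101: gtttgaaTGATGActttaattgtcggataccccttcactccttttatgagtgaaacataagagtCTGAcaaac
SNORD100: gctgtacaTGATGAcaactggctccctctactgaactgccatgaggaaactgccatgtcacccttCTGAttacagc
SNORA33: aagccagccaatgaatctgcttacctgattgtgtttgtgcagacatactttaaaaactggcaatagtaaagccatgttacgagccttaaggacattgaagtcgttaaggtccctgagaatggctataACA
SNORD14A: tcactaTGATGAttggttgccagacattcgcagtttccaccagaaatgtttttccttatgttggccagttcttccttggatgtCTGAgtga
SNORD101 (chr6:132815307-132815379), SNORD100 (chr6:132816802-132816877) and SNORA33 (chr6:132817219-132817348) lie on the plus strand in introns of RPS12, and SNORD14A (chr11:17074654-17074744) lies on the minus strand in an intron of RPS13. All 7 SNORD rows held TGATGA within 15 bases of the 5′ end and CTGA within 15 bases of the 3′ end on the transcribed strand.

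The first comparison asked which of these transcripts ISO treatment moved in each line. A row was called changed where the ISO to control ratio was at least 2-fold on the log2(FPKM + 1) scale, and 55 of the 56 rows passed a filter of 1 FPKM on the mean. In AGS-1 cells 8 of 55 rows changed, 2 rising and 6 falling, and over the 2883 genes that passed the filter 0.832% rose and 6.66% fell. In HGC-27 cells 7 of 55 changed, 5 rising and 2 falling, against 0.555% of all genes rising and 0.937% falling. No lncRNA, snoRNA or TEC row was among them in either line. The rows that changed were 3 miRNAs and 9 unannotated transcripts. The median log2 ratio of the 48 rows that were above 0 in every library came to 0.00 in AGS-1 cells and to 0.08 in HGC-27 cells, beside −0.29 and −0.11 over all genes. In such bulk libraries, fewer cells with a transcript and less RNA per cell cannot be told apart.

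**Figure D1:**
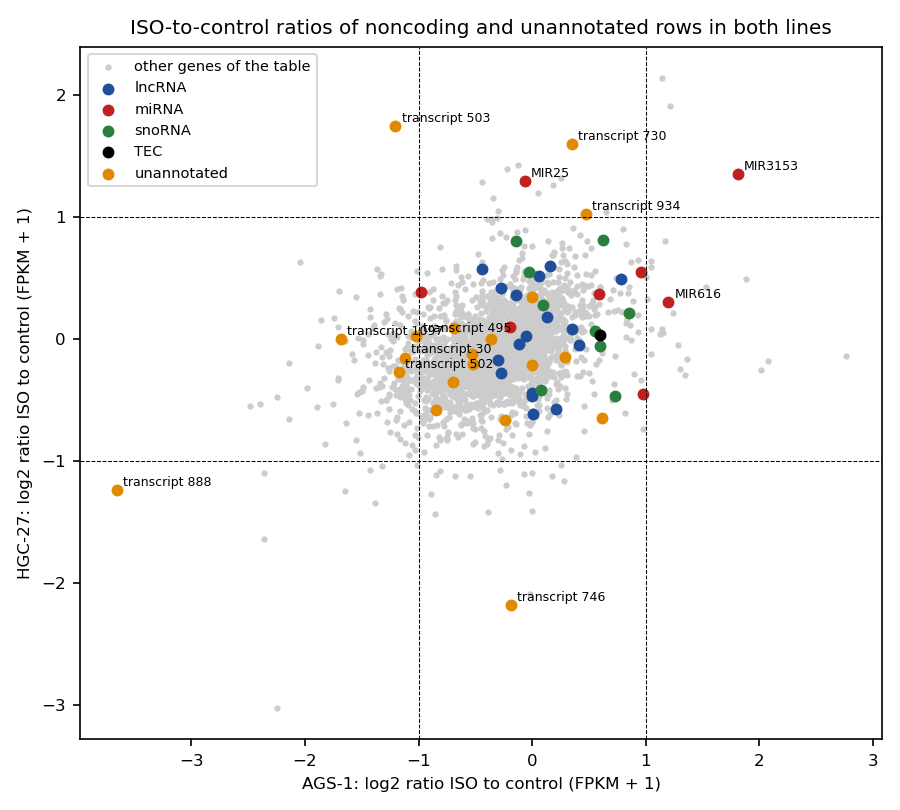
Log2 ratio of ISO to control on the log2(FPKM + 1) scale in AGS-1 (horizontal) against HGC-27 cells (vertical), with noncoding and unannotated rows coloured by type, other genes in grey, dashed lines at 2-fold and 1 library behind each group, so that no error bars can be drawn. The lncRNA and snoRNA points stay inside the dashed lines, and the labelled points outside them are 3 miRNAs and 9 unannotated transcripts.

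The split of the AGS-1 rows between rising and falling depended on the pseudocount and the scaling. With a pseudocount of 0.1 it was 5 rising and 6 falling, MIR1254-1, MIR4292 and transcript 946 being added. With median-of-ratios factors in place of the FPKM scale, the median of all genes moved from −0.29 to −0.03 in AGS-1 cells and from −0.11 to −0.05 in HGC-27 cells, and the AGS-1 rows became 6 rising and 2 falling, against 1.73% of all genes rising and 2.5% falling on that scale. The lncRNA ANKRD10-IT1, the snoRNA SNORD6, MIR1254-1 and MIR4292 then rose at least 2-fold in AGS-1 cells, and transcripts 30, 495, 502 and 503 no longer fell 2-fold. The HGC-27 split stayed at 5 rising and 2 falling, with the same 7 rows, against 0.694% and 0.832% of all genes.

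The miRNA hairpin rows with the largest ratios were MIR3153, MIR616 and MIR25. MIR3153, in an intron of the cell cycle kinase subunit gene CKS2 (chr9:89312225-89312306), went from 5.60 to 22.2 FPKM in AGS-1 cells, and in HGC-27 cells from 7.24 to 20.0 FPKM, so that both ISO libraries lay above both controls. These values rest on few fragments, 7 and 29 in AGS-1 cells and 12 and 28 in HGC-27 cells. The ratio was 3.96-fold (95% exact interval 1.70 to 10.7) in AGS-1 and 2.76-fold (1.36 to 5.96) in HGC-27 cells, intervals that cover counting error only. CKS2 itself went from 48.8 to 89.4 FPKM in AGS-1 cells, and in HGC-27 cells from 144 to 156 FPKM.

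MIR616 lies in an intron of DDIT3, the gene of the stress transcription factor CHOP (chr12:57519163-57519259). It rose from 13.5 to 32.3 FPKM in AGS-1 cells, 2.39-fold with an interval of 1.40 to 4.23, and stood at 7.66 and 9.66 FPKM in HGC-27 cells, where 15 and 16 fragments were counted. DDIT3 went the same way in AGS-1, from 20.3 to 28.3 FPKM, and stood at 27.2 and 18.2 FPKM in HGC-27 cells. MIR25, one of a miRNA cluster in the replication helicase gene MCM7 (chr7:100093560-100093643), rose from 24.8 to 62.1 FPKM in HGC-27 cells, 2.51-fold with an interval of 1.72 to 3.71, and stood at 30.5 and 29.1 FPKM in AGS-1 cells. MCM7 stood at 163 and 132 FPKM in HGC-27 and at 45.9 and 36.9 FPKM in AGS-1 cells. For both hairpins the 2-fold change was reached in 1 line only, and the difference between the lines was not tested.

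MIR3189 lies in the intron of GDF15, which encodes a stress-induced cytokine (chr19:18386562-18386634). It was the highest miRNA row at 152 and 229 FPKM in control and ISO-treated AGS-1 cells, and it stood at 4.75 and 6.42 FPKM in HGC-27 cells, where 7 and 8 fragments were counted. GDF15 followed the same order between the lines, at 1420 and 1226 FPKM in AGS-1 cells and 71.1 and 44.5 FPKM in HGC-27 cells. The other 4 miRNA rows stayed below 2-fold on the log2(FPKM + 1) scale, although MIR4292 and MIR1254-1 passed it in AGS-1 cells with a pseudocount of 0.1 or with median-of-ratios scaling. MIR1244-2 went from 76.4 to 38.3 FPKM in AGS-1, a log2 ratio of −0.98, and from 53.0 to 69.6 FPKM in HGC-27 cells. MIR4292 went from 15.7 to 31.8 FPKM in AGS-1 cells, and in HGC-27 cells from 20.7 to 14.9 FPKM. MIR1254-1 went from 12.2 to 24.5 and from 15.8 to 23.6 FPKM, and MIR3685 from 23.3 to 20.2 and from 8.78 to 9.45 FPKM, in the same order. MIR1244-2 and MIR1254-1 belong to genes with near-identical copies, so their counts are uncertain. The rows that just passed the 2-fold threshold were transcript 495 at −1.02 in AGS-1 cells and transcript 934 at 1.02 in HGC-27 cells, and those that just missed it were MIR4292 at 0.98 and MIR1244-2 at −0.98, both in AGS-1 cells.

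Few of all genes changed 2-fold, as given above, and the 9 snoRNA rows stayed within 2-fold, SNORD6 under median-of-ratios scaling excepted. The median of their log2 ratios came to 0.55 in AGS-1 cells and to 0.22 in HGC-27 cells, with 7 and 6 of the 9 above 0, beside 20.4% and 35.3% of all genes. Under median-of-ratios scaling the medians were 0.82 and 0.27, with 9 and 7 of the 9 above 0, beside 46% and 43.1% of all genes. SNORA33 went from 29.8 to 46.3 FPKM in AGS-1 cells, and in HGC-27 cells from 24.0 to 42.8 FPKM, with both ISO libraries above both controls. SNORD104, whose host SNHG25 was not in the table, was the highest snoRNA row. It stood at 55.3 and 50.1 FPKM in AGS-1 cells and went from 81.3 to 143 FPKM in HGC-27 cells. SNORD14A went opposite ways, from 24.5 to 41.3 FPKM in AGS-1 cells, and in HGC-27 cells from 56.6 to 40.6 FPKM. SNORD83A stood at 29.02 and 28.4 FPKM in AGS-1 cells and at 31.8 and 46.9 FPKM in HGC-27 cells. SNORA73B stood at 35.4 and 37.5 FPKM in AGS-1 cells and at 47.6 and 35.3 FPKM in HGC-27 cells.

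The second comparison set each intronic row beside its own host gene. Of the 56 rows, 15 lay within an intron of a gene on the same strand that was itself in the table, 8 snoRNAs, 6 miRNAs and the lncRNA ANKRD10-IT1, in 13 host genes. In AGS-1 cells 14 of the 15 had a higher log2 ratio of ISO to control than the host, with a median difference of 0.80 and a range from −0.33 to 1.41. The median log2 ratio was 0.62 for the intronic rows and −0.23 for the hosts. In HGC-27 cells 11 of the 15 were higher, with a median difference of 0.42 and a range from −0.67 to 1.60, and the medians were 0.30 and −0.19. These counts do not depend on the scaling, since a scale factor is common to row and host. They were 14 and 11 with a pseudocount of 0.1 or of 5 as well.

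The largest difference from a host among the snoRNAs, in either line, was that of SNORA33 in RPS12. The RPS12 mRNA went from 639 to 368 FPKM in AGS-1 cells, and in HGC-27 cells from 673 to 527 FPKM. Over the same libraries SNORD101 went from 22.5 to 33.5 and from 12.2 to 12.8 FPKM, and SNORD100 went from 44.0 to 47.0 and from 20.2 to 24.7 FPKM. As a share of RPS12, SNORA33 went from 4.66% to 12.6% in AGS-1 cells and from 3.56% to 8.13% in HGC-27 cells. The snoRNA to host ratio of SNORA33 was 2.69-fold higher with ISO in AGS-1 (interval 1.93 to 3.79). In HGC-27 cells it was 2.28-fold higher (1.64 to 3.19). These intervals, and those of row to host ratios below, cover the counting error of the row only. The 3 snoRNAs share this host and are not independent. Without them 11 of 12 rows in AGS-1 and 8 of 12 in HGC-27 cells were higher than the host, with median differences of 0.75 and 0.23.

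Other ribosomal protein hosts gave the same direction in AGS-1 cells. RPS13 went from 139 to 95.7 FPKM and its SNORD14A from 17.7% to 43.2% of the host, a ratio 2.44-fold higher (interval 1.58 to 3.83), whereas in HGC-27 cells the share went from 30.4% to 24.9%. RPL3 went from 413 to 260 FPKM in AGS-1 cells, and in HGC-27 cells from 372 to 325 FPKM while its SNORD83A had ratios to the host 1.55-fold higher (0.992 to 2.44) and 1.69-fold higher (1.19 to 2.41). SNORD6 in TAF1D, a subunit of a transcription factor for RNA polymerase I, stood at 15.3 and 28.3 FPKM in AGS-1 cells and at 7.46 and 8.83 FPKM in HGC-27 cells. The 1 exception in AGS-1 was SNORA73B, which lay 0.33 below its noncoding host SNHG3 on the log2 scale and 0.37 below it in HGC-27 cells. SNHG3 overlaps the protein-coding gene RCC1 on the same strand, and against RCC1 the difference of SNORA73B was 0.68 in AGS-1 cells and −0.26 in HGC-27 cells. The counting interval of the row, divided by the ratio of the host, leaves out the counting error of the host. It lay above 1 for 8 of 15 rows in AGS-1 and for 4 of 15 in HGC-27 cells, and below 1 for 0 and 1 of them. For MIR616 in AGS-1 cells, 1 of the 8, its lower end was 1.002. Without the RPS12 introns it lay above 1 for 5 of 12 rows in AGS-1 and 3 of 12 in HGC-27 cells, and below 1 for 0 and 1.

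**Figure D2:**
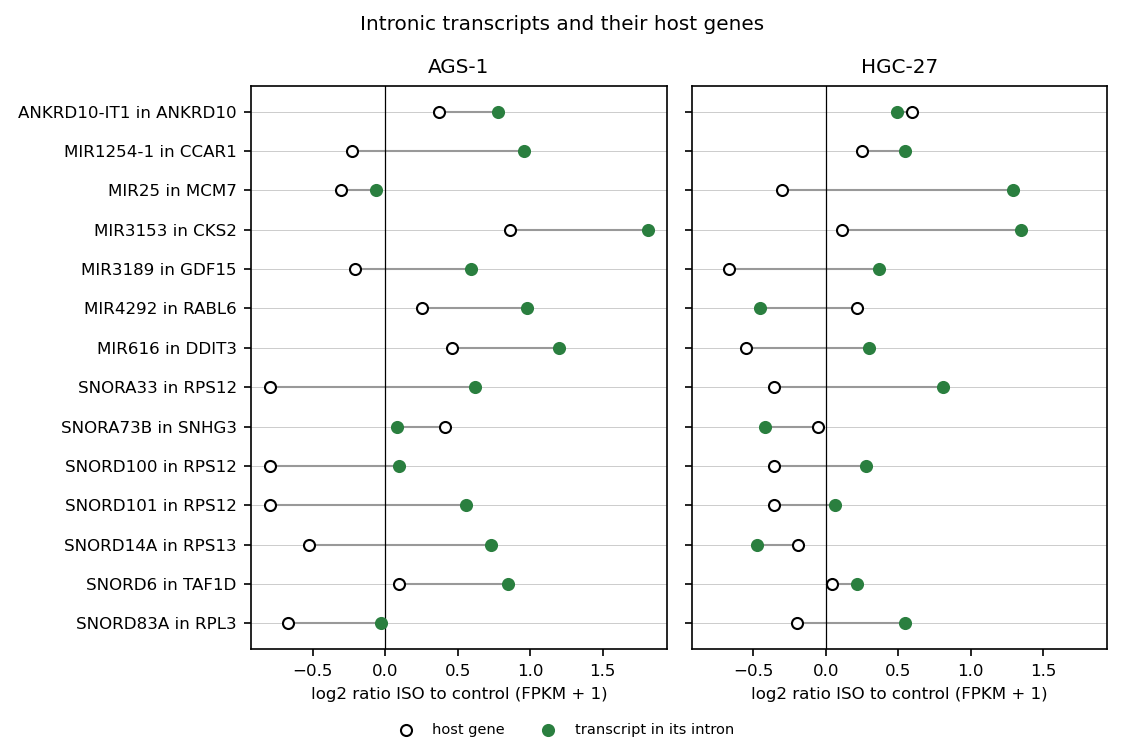
Log2 ratio of ISO to control for 14 of the 15 intronic snoRNA, miRNA and lncRNA rows beside that of the host gene, by cell line, on the log2(FPKM + 1) scale with 1 library per group. The intronic row lies below the host for 1 drawn row in AGS-1 cells and for 4 in HGC-27 cells, and above it for the others.

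Other short rows were set beside the intronic ones. Among the other 24 rows of the table no longer than the longest snoRNA or miRNA row (204 bases), the log2 ratios had a median of 0.21 in AGS-1 cells and of −0.20 in HGC-27 cells. The 14 mitochondrial tRNAs among them had medians of 0.90 and −0.16, and the 10 others −0.34 and −0.42, with 2 of these 10 above 0 in AGS-1 cells. The part of row length or of RNA quality in the differences between intronic rows and hosts was not tested.

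Of the 17 lncRNAs 0 changed 2-fold with ISO in either line, ANKRD10-IT1 under median-of-ratios scaling excepted. Over all genes 0.832% rose and 6.66% fell in AGS-1 cells, and 0.555% rose and 0.937% fell in HGC-27 cells. At such shares the count of 0 does not set the lncRNAs apart. The log2 ratios of the lncRNAs ranged from −0.44 to 0.78 in AGS-1 cells and from −0.61 to 0.59 in HGC-27 cells. The largest group was the snoRNA hosts, spliced RNAs whose introns carry box C/D or H/ACA snoRNAs, of which 8 of 30 listed genes were in the table. The log2 ratios of these hosts had a median of 0.00 in AGS-1 cells and of −0.05 in HGC-27 cells. In these lines 4 and 3 of 8 were above 0, beside 20.4% and 35.3% of all genes. Of the 8 hosts 0 changed 2-fold in either line, which at the shares of all genes does not set them apart. Under median-of-ratios scaling the host medians were 0.27 and 0.02. GAS5 (chr1:173858559-173868882, minus strand), which accumulates in growth-arrested cells, stood at 61.3 and 58.9 FPKM in AGS-1 cells and at 104 and 106 FPKM in HGC-27 cells. SNHG1 (chr11:62851984-62855953) went from 31.3 to 36.4 FPKM in AGS-1 cells, and in HGC-27 cells from 95.0 to 63.7 FPKM. SNHG3 (chr1:28505980-28510892) went from 24.3 to 32.7 FPKM in AGS-1 cells and stood at 37.6 and 36.2 FPKM in HGC-27 cells. SNHG19 stood at 14.4 and 15.03 FPKM in AGS-1 cells, and in HGC-27 cells it went from 22.4 to 32.5 FPKM.

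The cell lines differed more than the treatments. A limma fit over all 4 libraries and all 2883 genes, with cell line and treatment as terms, called 37 of 55 rows for cell line at an adjusted p under 0.05, 19 higher in AGS-1 and 18 higher in HGC-27 cells. Over all genes 32.2% were called higher in AGS-1 and 24.7% higher in HGC-27 cells. Of the 37, 7 were at 0 in at least 1 library of the lower line and passed the filter only through the other line, so that their call was fixed by the filter. Of the 48 rows above 0 in every library 30 were called, 16 higher in AGS-1 and 14 higher in HGC-27 cells. The fit has 1 residual degree of freedom and takes control and ISO-treated libraries of a line as its 2 samples, so its p-values set a difference against the departure of these 4 libraries from additive terms, moderated by that of the other genes. Of the 8 snoRNA hosts, 7 were called higher in HGC-27 cells and SNHG3 was not (log2 difference −0.38, AGS-1 minus HGC-27, limma adjusted p = 0.132). For all 8, both HGC-27 libraries lay above both AGS-1 libraries. SNHG6 had the largest difference, at 17.1 and 15.7 FPKM in AGS-1 against 81.1 and 78.9 FPKM in HGC-27 cells (log2 difference −2.22, limma adjusted p = 5.8e-07). SNHG29 stood at 22.8 and 18.7 against 65.6 and 53.9 FPKM, a log2 difference of −1.48. SNHG15 stood at 14.2 and 11.3 against 31.5 and 27.9 FPKM, and SNHG7 at 7.73 and 10.1 against 21.2 and 22.6 FPKM. The log2 difference was −0.80 for GAS5 (limma adjusted p = 0.00815), −1.18 for SNHG1 and −0.84 for SNHG19. Under median-of-ratios scaling the same 7 hosts were called, in the same direction.

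The nuclear lncRNAs and NORAD had the opposite order. NEAT1 (chr11:65422774-65445540), the scaffold of paraspeckles, stood at 64.3 and 64.5 FPKM in AGS-1 cells and went from 29.1 to 18.7 FPKM in HGC-27 cells. MALAT1 (chr11:65497688-65506516), an RNA of nuclear speckles, stood at 59.5 and 65.5 FPKM in AGS-1 cells and at 15.6 and 17.8 FPKM in HGC-27 cells. NORAD (chr20:36045618-36051018), a cytoplasmic RNA that binds Pumilio proteins, went from 170 to 140 FPKM in AGS-1 cells, and in HGC-27 cells from 33.2 to 44.6 FPKM. For each of them both AGS-1 libraries lay above both HGC-27 libraries, by log2 differences of 1.43, 1.85 and 1.97 (limma adjusted p = 0.000101, 3.2e-06 and 1.5e-05). They were called in the same direction under median-of-ratios scaling.

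**Figure D3:**
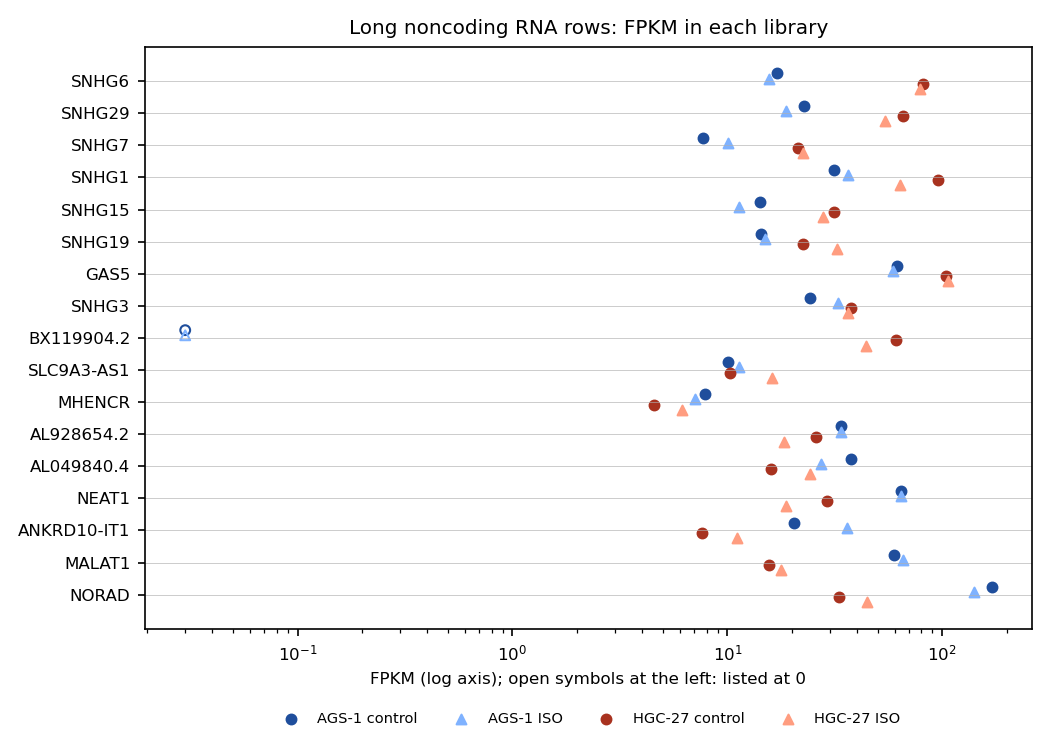
FPKM of each lncRNA row in the 4 libraries on a log axis, with 1 point per library, no error bars and open symbols at the left for rows listed at 0. The 8 snoRNA hosts sit higher in HGC-27 cells, and NORAD, MALAT1 and NEAT1 sit higher in AGS-1 cells.

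Among the other lncRNAs, ANKRD10-IT1, an intronic transcript of ANKRD10, had the highest AGS-1 ratio, going from 20.5 to 36.0 FPKM, and went from 7.61 to 11.1 FPKM in HGC-27 cells. AL049840.4, in an intron of the kinesin light chain gene KLC1, went from 37.6 to 27.4 FPKM in AGS-1 cells, and in HGC-27 cells from 15.99 to 24.3 FPKM. AL928654.2, which overlaps MTA1, stood at 33.9 and 33.8 FPKM in AGS-1 cells, and in HGC-27 cells it went from 25.8 to 18.4 FPKM. SLC9A3-AS1, antisense to SLC9A3, stood at 10.1 and 11.3 FPKM in AGS-1 cells, and in HGC-27 cells it went from 10.3 to 16.1 FPKM. Strand use in counting is not given in the sources used here, so the reads of GAS5, SNHG6, SNHG7, SNHG29, MALAT1, AL928654.2 and SLC9A3-AS1 cannot be told apart from those of genes that overlap them. MHENCR, listed at 7.87 and 7.04 FPKM in AGS-1 cells and 4.57 and 6.14 FPKM in HGC-27 cells, was the lowest of the lncRNAs by its mean. BX119904.2 (chrX:116692910-116694188) was listed at 0 in both AGS-1 libraries and at 60.7 and 44.4 FPKM in HGC-27 cells. That is at least 158-fold and 121-fold higher when AGS-1 is put at the level of 3 fragments per library. BX119904.2 passed the filter only through HGC-27 cells, so this difference is tied to the filter. The TEC row AC022400.7, which lies 154 bases from SEC24C, went from 6.96 to 11.1 FPKM in AGS-1 cells and stood at 13.7 and 14.1 FPKM in HGC-27 cells.

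Proteins that act with these RNAs were read from lists of partner genes. The snoRNP list holds 12 genes, for proteins of the snoRNA modification complexes and for other nucleolar proteins such as NCL and NPM1. Of these 9 were in the table. The median of their log2 ratios came to −0.33 in AGS-1 cells and to −0.28 in HGC-27 cells. Of 13 paraspeckle or speckle proteins 10 were present, with medians of −0.05 and 0.24. A list of 13 translation factors and other proteins held genes whose mRNAs carry a 5′ terminal oligopyrimidine tract, as GAS5 does. Of these 8 were present, with medians of −0.33 and −0.14. NPM1 is on this list and on the snoRNP list. Fewer partners of the abundant small RNAs were present, 3 of 7 for 7SK, 3 of 6 for 7SL and 2 of 10 for RNase P and MRP. None of these partner genes changed 2-fold in either line. Over all genes 0.832% rose and 6.66% fell in AGS-1 cells, and 0.555% rose and 0.937% fell in HGC-27 cells. Limma called 0 of the partner genes for treatment, against 0.937% of all genes, so these counts do not set them apart. Of 9 snoRNP genes 2 had an unadjusted limma p under 0.05, as 578 of the 2883 genes did. SNU13 was the lowest of the partner genes at a limma adjusted p of 0.196. The nearest to the 2-fold rule was HEXIM1, an inhibitor that 7SK presents to the elongation kinase CDK9, which went from 15.8 to 32.3 FPKM in HGC-27 cells (log2 ratio 0.98). For cell line, 5 of 9 snoRNP genes were called higher in HGC-27 and 0 in AGS-1 cells, beside 24.7% and 32.2% of all genes. The calls were 1 each way for 7SK partners and for paraspeckle or speckle proteins. On the oligopyrimidine tract list 2 were higher in HGC-27 and 1 in AGS-1 cells. For RNase P and MRP 1 was higher in HGC-27 cells, and for 7SL 0 were called.

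The unannotated transcripts held the highest FPKM value of the 56 rows and the strongest fall in each line. Of the 21, 18 lie on patch or alternative haplotype sequences of GRCh38 and 3 on chromosomes. Their summed level was 2157 and 844 FPKM in control and ISO-treated AGS-1 and 885 and 720 FPKM in HGC-27 cells. The filter passed 20, with median log2 ratios of −0.53 and −0.15. These medians include rows listed at 0 in both libraries of a line, whose ratio there is 0 by construction. Such rows were transcripts 961 and 875 in AGS-1 and 1097 and 166 in HGC-27 cells. Transcripts on haplotype and patch sequences have near-identical copies on the chromosomes, so reads can be split between copies and their values are uncertain.

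The 3 unannotated transcripts on chromosomes were at or near 0 in HGC-27 cells. They passed the filter only through AGS-1 cells, so their difference between the lines is tied to the filter. Transcript 1097 (chrX:4540507-4546179, minus strand), whose nearest annotated gene AC074035.1 is 81021 bases away, was the most abundant of the 56 rows at 1082 FPKM in control AGS-1 cells and fell to 336 FPKM with ISO, from 4551 to 1478 fragments. Transcript 30 (chr1:68386064-68392004, minus strand), between the pseudogene AL139413.1 and RPE65, fell from 145 to 66.0 FPKM. Transcript 166 (chr19:47049907-47055113, minus strand), 1277 bases from TMEM160, went from 62.1 to 48.2 FPKM. In HGC-27 cells transcript 1097 and transcript 166 were listed at 0 in both libraries, and transcript 30 at 0.111 FPKM, which is 1 fragment, in the control and at 0 with ISO. With HGC-27 cells at the level of 3 fragments per library, transcript 1097 was at least 2011-fold and 527-fold higher in AGS-1 control and ISO-treated cells, and transcript 166 at least 336-fold and 220-fold higher.

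Transcript 888, on the COX haplotype of the major histocompatibility complex (MHC) and annotated with a ribosomal protein S13/S18 domain, was the row that fell most in AGS-1 cells. It stood at 288 FPKM in the control and 21.9 FPKM with ISO, and in HGC-27 cells it fell from 178 to 75.0 FPKM. Both ISO libraries lay below both controls. The log2 ratios were −3.65 and −1.24.

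Unannotated transcripts that share a patch or alternative sequence did not always move together. On the patch CHR_HG26_PATCH, transcript 495 (a domain of the CSN8/PSMD8/EIF3K family) fell from 31.1 to 14.9 FPKM, transcript 502 (enoyl-CoA hydratase/isomerase) from 43.0 to 18.5 FPKM and transcript 503 (RRM-like) from 39.2 to 16.4 FPKM in AGS-1 cells. In HGC-27 cells transcript 495 stood at 15.3 and 15.6 FPKM and transcript 502 at 15.8 and 12.9 FPKM, whereas transcript 503 rose from 9.97 to 35.9 FPKM. The AGS-1 ratios of these 3 transcripts were within 2-fold under median-of-ratios scaling. On the alternative sequence CHR_HSCHR17_7_CTG4, transcript 730, with an RNA recognition motif and a Ran-binding zinc finger, stood at 21.0 and 27.1 FPKM in AGS-1 cells, and in HGC-27 cells it rose from 7.01 to 23.3 FPKM. Transcript 746 on the same sequence, with a proteasome subunit domain, stood at 16.9 and 14.7 FPKM in AGS-1 cells, and in HGC-27 cells it fell from 55.0 to 11.4 FPKM, from 1070 to 187 fragments.

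MHC class I molecules present peptides to T cells, and 8 unannotated transcripts on 6 MHC haplotypes carried a class I or immunoglobulin C1-set domain. Their summed level was 298 and 190 FPKM in AGS-1 cells and 466 and 450 FPKM in HGC-27 cells. Of the 8, 3 were listed at 0 in both AGS-1 libraries and none in HGC-27 cells. Transcript 902 was the highest of them in AGS-1 cells at 244 and 135 FPKM and stood at 108 and 71.9 FPKM in HGC-27 cells. Transcript 961 was listed at 0 in AGS-1 cells and at 117 and 149 FPKM in HGC-27 cells, at least 339-fold and 452-fold higher. Transcript 875 was likewise listed at 0 in AGS-1 cells and at 53.7 and 46.3 FPKM in HGC-27 cells. Transcript 914 was listed at 0 in AGS-1 cells and at 1.60 and 1.17 FPKM in HGC-27 cells. Transcripts 961 and 875 passed the filter only through HGC-27 cells, so their differences between the lines are tied to it. Transcript 952 stood at 25.1 and 31.0 FPKM in AGS-1 cells and at 102 and 92.1 FPKM in HGC-27 cells. Transcript 982 stood at 11.8 and 6.97 FPKM in AGS-1 cells and at 40.2 and 42.8 FPKM in HGC-27 cells, and transcript 896 at 11.2 and 7.44 FPKM against 38.0 and 34.8 FPKM. Transcript 934 was the 1 class I row that changed 2-fold, from 5.09 to 11.4 FPKM in HGC-27 cells, and stood at 6.37 and 9.25 FPKM in AGS-1 cells. With a pseudocount of 5 its HGC-27 log2 ratio was 0.70, under the 2-fold threshold, and it did not pass a filter of 10 FPKM. Transcript 946, which carries no annotated domain, was listed at 0 in control AGS-1 cells and at 0.527 FPKM (4 fragments) with ISO, and at 65.5 and 41.6 FPKM in HGC-27 cells.

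The light chain of class I molecules, β2-microglobulin, has a gene of its own on chromosome 15 in the table, B2M, and an unannotated counterpart on an alternative sequence of chromosome 15, transcript 603, with an immunoglobulin C1-set domain. Their order between the lines was opposite. Transcript 603 stood at 97.4 and 67.5 FPKM in AGS-1 cells and at 17.7 and 15.2 FPKM in HGC-27 cells (log2 difference 2.24, AGS-1 minus HGC-27), whereas B2M stood at 18.8 and 12.7 FPKM in AGS-1 cells and at 50.3 and 38.0 FPKM in HGC-27 cells. Transcript 773, with a phosphoglucose isomerase domain, kept the order of GPI, at 11.03 and 9.18 FPKM in AGS-1 cells and at 18.3 and 11.2 FPKM in HGC-27 cells beside 38.8, 36.9, 58.3 and 48.8 FPKM for GPI in the same order of libraries. Transcript 816, with a domain of macrophage migration inhibitory factor, stood at 21.5 and 12.9 FPKM in AGS-1 cells and at 35.9 and 27.9 FPKM in HGC-27 cells.

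**Figure D4:**
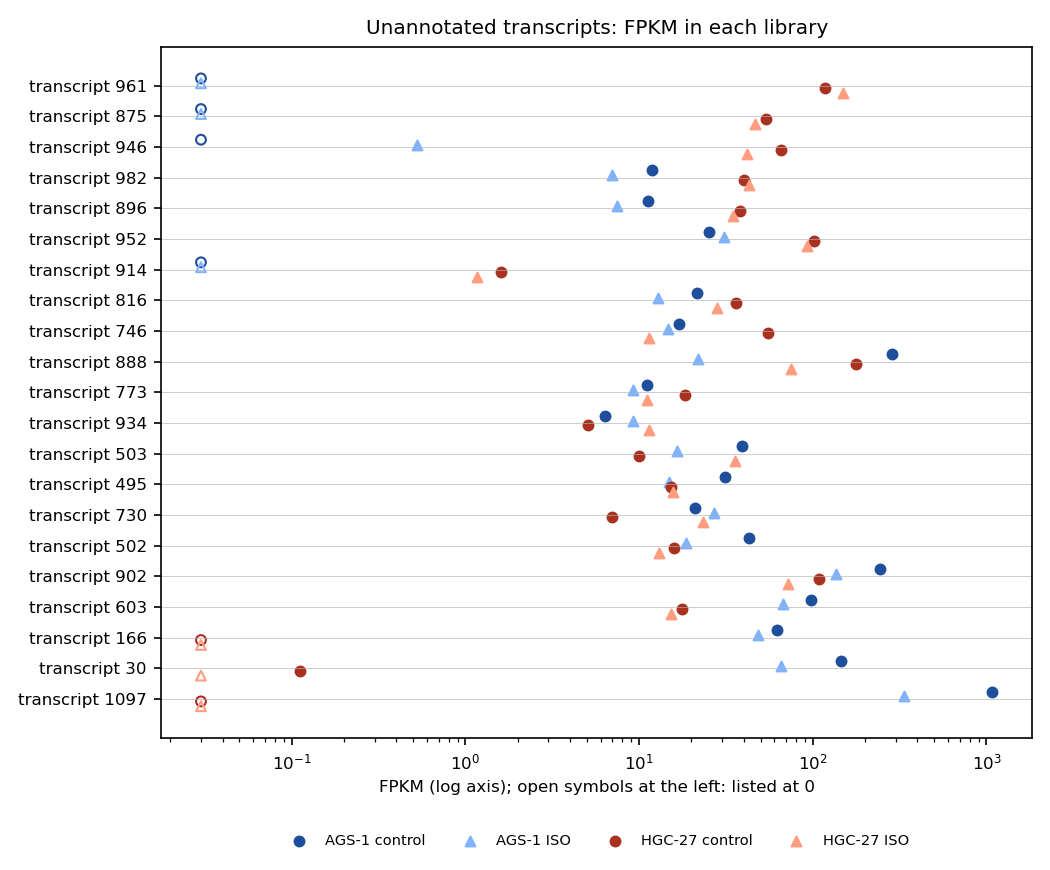
FPKM of the 21 unannotated transcripts in the 4 libraries on a log axis, with 1 point per library, no error bars and open symbols at the left for rows listed at 0. Transcript 1097 reaches 1082 FPKM in control AGS-1 cells, and transcript 888 falls with ISO in both lines.

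The third comparison asked which rows moved with ISO in both lines together, from the treatment term of the same limma fit. It called 2 of 55 rows at an adjusted p under 0.05, against 0.937% of all genes, and 17 of 55 had an unadjusted p under 0.05, 10 higher and 7 lower with ISO, where 2.22% of all genes were higher and 17.8% lower at that threshold. Transcripts 1097 and 30, at or near 0 in HGC-27 cells, are among the 7 and cannot show a fall there, and of the 48 rows above 0 in every library 10 were higher and 5 lower. Under median-of-ratios scaling 15 of 55 were higher and 3 lower, against 7.01% and 10.7% of all genes. MIR3153 rose (log2 difference 1.58, SE 0.22, limma adjusted p = 0.00633) and transcript 888 fell (log2 difference −2.45, SE 0.41, limma adjusted p = 0.0167). MIR3153 was not called under median-of-ratios scaling (limma adjusted p = 0.0626), nor was transcript 888 (0.17). Without the filter on low values transcript 888 was not called either (0.101), and neither was called without the cell line term. The next rows were MIR1254-1 (log2 difference 0.75, limma adjusted p = 0.0919), transcript 730 (0.98, 0.0988) and SNORA33 (0.71, 0.104). No snoRNA host had an unadjusted p under 0.05.

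Among the small RNA rows, the largest difference between the lines was that of MIR3189, with a log2 difference of 4.84 (AGS-1 minus HGC-27, limma adjusted p = 3.1e-10). The line term called 3 of 8 miRNAs and 3 of 9 snoRNAs higher in AGS-1, and 0 miRNAs and 2 snoRNAs higher in HGC-27 cells, beside 32.2% and 24.7% of all genes. MIR616 (1.20), MIR3685 (1.17), SNORD6 (1.26), SNORD101 (1.07) and SNORD100 (1.00) had positive log2 differences, and SNORD104 (−1.02) a negative one.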

How the data were processed

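RNA of control and ISO-treated AGS-1 and HGC-27 cells was sequenced on an Illumina NextSeq from an mRNA library kit. The authors deposited 1 table of FPKM values for 2897 genes, with 1 column per group. Whether a column pools duplicates is not given in the sources used here. The submitters' processing notes name CASAVA 1.8, HISAT2 and GRCh38, whereas the counter, annotation and selection of genes are not given in the sources used here. FPKM steps gave whole fragments for 100% of values (tolerance 0.02 fragments), used for depth and 95% exact (Clopper-Pearson) intervals only, which cover counting error.

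Values were tested as log2(FPKM + 1), with a mean of at least 1 FPKM, using limma 3.58.1 in R 4.3.3. The fit used empirical Bayes with trend, terms for cell line and treatment, and Benjamini-Hochberg adjustment over 2883 genes. It was also run on simulated data with changes shared by both lines. That run cannot show how the fit does where the lines respond differently or the scaling is in doubt. Other steps used Python 3.11.15, pandas 2.3.3 and scipy 1.17.1. Positions of the rows are those of the deposited table, and GENCODE 29 gave overlaps and neighbouring genes. Names for 5 rows without a symbol came from a gene name list or from GENCODE 29. All 35 rows with an identifier overlapped the gene of that identifier.

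Named rows included all that changed 2-fold or were called for treatment. They also included the 10 largest line differences in each direction, the 5 highest of a type and the rows on the gene lists. Other rows, such as MHENCR and MIR3685, met none of these rules and were named as well. The rows and lists were chosen with earlier results of these data known. Lists of imprinted, miRNA host and abundant small RNAs, and of H19 neighbours, had 0 genes in the table. Alternatives were pseudocounts of 0.1 and 5, no filter, a filter of 10 FPKM, median-of-ratios scaling and no cell line term. The values of 1 intronic row and its host are included in the counts and medians and are not reported here.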

Additional observations from a re-analysis of the deposited data

Results flagged for a closer look

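Transcript 503, an unannotated transcript on the patch CHR_HG26_PATCH with an RRM-like domain, moved opposite ways with ISO in the 2 lines. Its log2 ratio of ISO to control was −1.20 in AGS-1 cells, from 1286 to 565 fragments, and 1.75 in HGC-27 cells, from 434 to 1319 fragments. With 1 library per group the difference between the lines was not tested.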

How the results depend on the processing

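Each ratio rests on 1 library per group, so leaving out a library leaves no residual degrees of freedom for a test, and the ratio of each line alone is then the value. Under median-of-ratios scaling the median log2 ratio became 0.22 for all noncoding and unannotated rows and 0.27 for snoRNA hosts in AGS-1 cells. Of the 8 rows that changed in AGS-1 cells, 4 remained under that scaling. The number of rows called for treatment by limma, 2 as reported, was 5 with a pseudocount of 0.1, 1 with no filter, 6 with a filter of 10 FPKM, 0 with median-of-ratios scaling (18 at an unadjusted p under 0.05) and 0 without the cell line term (2 at an unadjusted p under 0.05). Over all genes the treatment calls, 27 as reported, were 107 and 12 with pseudocounts of 0.1 and 5, 6 with no filter, 104 with a filter of 10 FPKM, and 0 with median-of-ratios scaling or without the cell line term. The adjusted p of MIR3153 ranged from 0.00054 to 1 over these settings, and that of transcript 888 from 0.000306 to 1. No row that changed 2-fold turned its direction. Under median-of-ratios scaling 14 of 110 ratios of single rows in 1 line changed sign, each at most 0.28 in size on the log2 scale in either scaling, and so did the median of the snoRNA hosts in HGC-27 cells, from −0.05 to 0.02. With a pseudocount of 5 the AGS-1 median of the hosts went from 0.0003 to −0.0038. Small RNA rows with 7 to 20 fragments are limited by depth. The cell line term pairs control and ISO within a line. The causes were not tested.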
